A study of Saccharomyces cerevisiae with 4 samples.

Results

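Polyphosphate is a chain of phosphate groups that budding yeast keeps mostly in its vacuole as a phosphate store. The 10 genes described here make it, cut it, or carry a phosphate-metabolism (PHM) name, and they were taken by gene symbol: VTC1, VTC2, VTC3 and VTC4, PPN1, PPX1 and DDP1, and PHM6, PHM7 and PHM8. A probe set, the group of probes with which the array reads a transcript, was used where the platform annotation gave the member's symbol alone. That gave 11 probe sets for the 10 genes, of 5656 genes so named. VTC4 had 2 probe sets and each other member 1.

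The samples were total RNA of Saccharomyces cerevisiae strain ATCC 4126, 2 from cultures in YP (rich) medium with galactose and 2 from YP medium with glucose, all taken at an optical density of 1.0. The galactose samples carry the letters B and C and the glucose samples A and B, and each was measured on 1 array. Whether the letters mark separate cultures is not stated in the labels. The p-values below thus cover the spread among the 4 samples alone, and that spread could be technical. How much phosphate the media held is not stated in the labels.

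The VTC complex (vacuolar transporter chaperone) is a polymerase in the vacuolar membrane that builds polyphosphate from ATP and feeds it into the vacuole. Several of its subunits carry an SPX domain, which senses inositol pyrophosphates and through them the phosphate state of the cell. When phosphate runs short, the activator Pho4 is known to turn on the genes for phosphate uptake, phosphatases and the VTC subunits, and polyphosphatases release phosphate from the stored chains.

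The galactose genes checked the labels of the media. The galactokinase gene GAL1 averaged 9446 ± 680.2 in galactose and 38.3 ± 2.95 in glucose (SD, n = 2 each, as in all such values below). The permease gene GAL2, the epimerase gene GAL10 and the transferase gene GAL7 passed the test with it, with limma adjusted p-values from 0.00192 to 0.00207. GAL2 was 406-fold and GAL10 126-fold higher, and GAL7 at least 271-fold higher, since both of its glucose values lay under the floor of 18.5 that was set for low intensities. Array medians ran from 108 to 117.

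Of the 10 polyphosphate genes, 9 were separated upward, meaning that the lower galactose array exceeded the higher glucose array, and 0 were separated downward. PPX1 was the exception, with overlapping media. Over all 7302 tested probe sets, 17.0% were separated upward and 22.1% downward. The members were chosen with earlier results of these data known, so these shares describe the list and do not test it. The median of the members' log2 differences, galactose minus glucose, was 1.28, a 2.43-fold higher intensity in galactose, where the median over all tested probe sets was -0.01. An intensity is an average over the culture, so more transcript in every cell and transcript in more cells cannot be told apart.

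No member passed limma's test after adjustment over all probe sets (0 of 10; 0.794% of tested probe sets passed as higher and 0.0411% as lower). At an unadjusted p under 0.05, 8 members were higher and 0 lower, where 4.29% of tested probe sets were higher and 4.33% lower. These shares hold for all 4 arrays. With an array left out, the count of 8 moved in both directions, and it fell without either glucose array. A medium then has 1 array, so such counts are not set beside these shares. Of the members, 6 were at least 2-fold higher, as were 3.36% of the tested probe sets. Ordered by the log2 difference, 9 members lay above 95.5% to 99.8% of the tested probe sets, and PPX1 above 68.3%.

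**Figure D1:**
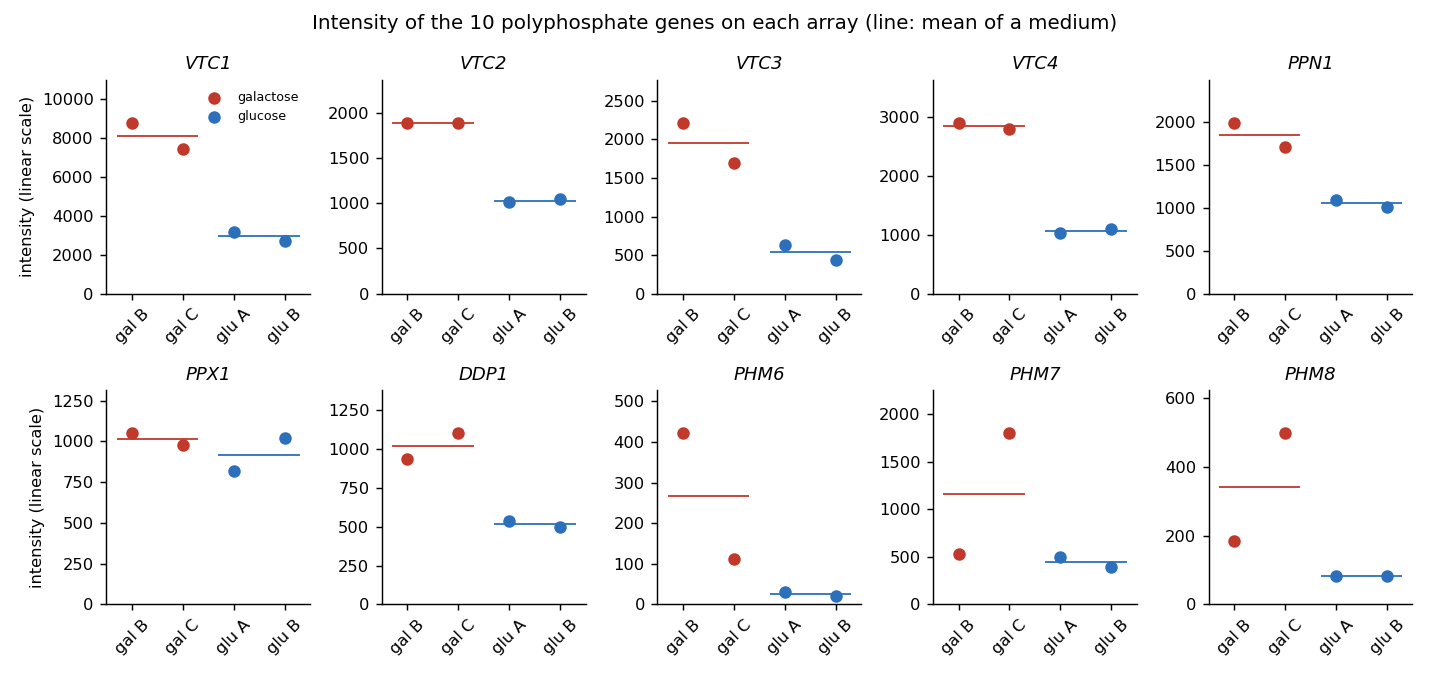
Intensity on a linear scale (vertical axes, each from 0) of the 10 polyphosphate genes on each array, galactose (B and C) at the left and glucose (A and B) at the right, with 1 point per array and a line at the mean of each medium. PPX1 is the only gene whose media overlap, and PHM6, PHM7 and PHM8 are the genes whose galactose points lie far from each other, at 421 and 112, 529 and 1798, and 184 and 497.

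VTC4 (YJL012C) is the catalytic subunit of the polymerase. Its brighter probe set read 2909 on galactose B and 2796 on galactose C, against 1026 on glucose A and 1102 on glucose B. The galactose arrays differed by 1.04-fold and the glucose arrays by 1.07-fold, so the media lay far apart relative to the spread within them. The fold was 2.68 (95% interval 1.85 to 3.89 from the same limma fit, as for all intervals below; limma adjusted p = 0.0915, the lowest of any member). The dimmer probe set of VTC4 read 1682 and 1909 in galactose, against 804 and 589.5 in glucose, a 2.60-fold difference (limma adjusted p = 0.187). The 2 probe sets gave folds near each other, although the glucose arrays lay 1.36-fold apart on the dimmer one.

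VTC1 (YER072W), a small membrane subunit that the complex needs, read 8805 and 7444 on galactose B and C, against 3193 and 2700.4 on glucose A and B. The lower galactose array stood 2.33-fold above the higher glucose array. The fold of the means on the log2 scale was 2.76 (95% interval 1.84 to 4.13; limma adjusted p = 0.105).

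VTC2 and VTC3 encode alternative SPX subunits that are paralogs and give the complex different places in the cell. VTC3 (YPL019C) read 2218 and 1697 on galactose B and C, against 632 and 440.1 on glucose A and B. VTC2 (YFL004W) read 1891 and 1889.8, against 1009 and 1043, and the galactose arrays gave nearly the same value. VTC3 was 3.68-fold higher in galactose (95% interval 2.15 to 6.29; limma adjusted p = 0.115) and VTC2 1.84-fold higher (95% interval 1.27 to 2.67; limma adjusted p = 0.310).

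The change of VTC3 exceeded that of VTC2 by 1.00 on the log2 scale, by 1.19 on galactose B and by 0.80 on galactose C relative to the glucose mean. With 4 arrays an exact two-sided permutation test of this difference cannot go below p = 0.333, the value it gave. The direction was the same on both galactose arrays, and this test cannot show whether the difference exceeds the spread.

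Among the enzymes that break polyphosphate down, the values differed from gene to gene. PPN1 (YDR452W), the vacuolar polyphosphatase that can cut chains internally, read 1991 and 1709 in galactose, against 1095 and 1008 in glucose. That was 1.76-fold higher (95% interval 1.18 to 2.61; limma adjusted p = 0.392), with the media apart.

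DDP1 (YOR163W) encodes a Nudix enzyme that removes pyrophosphate groups from inositol pyrophosphates and also cuts polyphosphate. It read 933 and 1102 in galactose, against 538 and 501 in glucose, which was 1.95-fold higher (95% interval 1.29 to 2.96; limma adjusted p = 0.333). Galactose C was the higher galactose array for DDP1, whereas galactose B was the higher for PPN1 and for the brighter or sole probe set of each VTC gene.

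PPX1 (YHR201C), the cytosolic exopolyphosphatase, read 1049.8 and 977 in galactose, against 816 and 1019.8 in glucose. Glucose B lay between the galactose arrays. The fold was 1.11 with a 95% interval from 0.724 to 1.70 (limma adjusted p = 0.879). The interval reaches from a lower to a higher level in galactose and overlaps those of PPN1 and DDP1, so the data do not show that PPX1 stayed level. Without glucose A its log2 difference was -0.010, against 0.15 with all arrays.

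**Figure D2:**
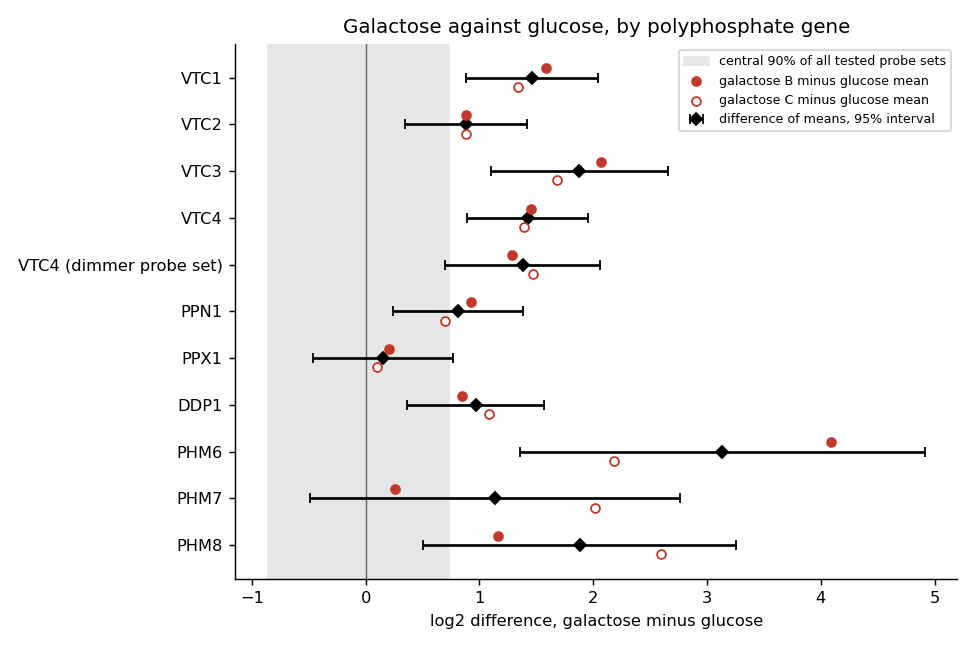
The log2 difference between galactose and glucose (horizontal axis) for each member probe set, as a diamond with its 95% interval, with the filled and open circles giving galactose B and galactose C against the glucose mean. The grey band holds the central 90% of all tested probe sets, from -0.86 to 0.74. All member diamonds except that of PPX1 lie to the right of the band, and the circles of PHM6, PHM7 and PHM8 stand far apart.

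The PHM genes are known for expression at low phosphate. They had the widest spread between the galactose arrays, and not in the same direction. PHM6 (YDR281C), whose product has no assigned function, read 421 on galactose B and 112 on galactose C, against 29.7 on glucose A and 20.6 on glucose B. It lay 8.79-fold higher in galactose, the largest fold of the 10 (95% interval 2.56 to 30.1; limma adjusted p = 0.262).

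Both glucose values of PHM6 lay close to the floor of 18.5. With the floor at the 40th percentile of all intensities its log2 difference was 1.83, against 3.14 with the floor used here, and with 18.5 added to every intensity in place of a floor it was 2.46. Without galactose B the fold was 4.53, and without galactose C it was 17.0. The lower galactose array still stood 3.77-fold above the higher glucose array.

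PHM8 (YER037W) encodes a phosphatase of nucleotides and lysophosphatidic acid. It read 184 on galactose B and 497 on galactose C, against 82.8 and 81.4 on glucose A and B. The fold was 3.68 (95% interval 1.42 to 9.55; limma adjusted p = 0.416), and it was 6.06 without galactose B and 2.24 without galactose C. Galactose C was the higher array here, the reverse of PHM6.

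PHM7 (YOL084W) encodes a membrane protein related to the osmosensitive calcium channel Csc1. It read 529 on galactose B and 1798 on galactose C, against 495 and 398 on glucose A and B. Galactose B lay only 1.07-fold above glucose A, while galactose C lay 4.52-fold above glucose B. The fold was 2.20 with a 95% interval from 0.713 to 6.78 (limma adjusted p = 0.669), and it was 4.05 without galactose B and 1.19 without galactose C. The difference between media for PHM7 therefore rested on galactose C.

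The galactose arrays differed by 3.76-fold for PHM6, 3.40-fold for PHM7 and 2.70-fold for PHM8. They lay at least 2-fold apart for these 3 members and for 12.7% of all tested probe sets. For the other 7 members they lay at most 1.31-fold apart, the value of VTC3, and 49.4% of all tested probe sets had a gap at least as wide. No member had glucose arrays at least 2-fold apart, which 4.29% of tested probe sets had; the widest gap was 1.45-fold, for PHM6.

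Lists of stress and growth genes also differed between galactose C and galactose B, and their values are set beside the PHM genes. Of 12 storage and stress genes, such as the glycogen phosphorylase gene GPH1, the trehalose synthase subunit gene TSL1, the catalase gene CTT1 and the glycogen synthase gene GSY2, 12 were higher on galactose C than on galactose B. Relative to the glucose mean their median was 1.02-fold for galactose B and 2.15-fold for galactose C. Of 19 ribosome biogenesis genes, such as RLP7, EBP2, NSR1 and DBP3, 19 were lower on galactose C than on galactose B, and the median relative to the glucose mean was 0.793-fold for galactose B and 0.283-fold for galactose C. The glucose arrays differed in these lists as well: 10 of the 12 storage and stress genes were higher on glucose A than on glucose B, with a median log2 difference, B minus A, of -0.55, and 17 of the 19 ribosome biogenesis genes were higher on glucose B, with a median of 0.41. PHM7 and PHM8 thus stood higher, and PHM6 lower, on the array that was higher for storage and stress genes. The part of this in the PHM values was not tested.

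For the polymerase subunits the galactose arrays lay close together. Relative to the glucose mean, VTC4 stood 1.45 higher on galactose B and 1.39 higher on galactose C on the log2 scale, and VTC2 stood 0.88 higher on both. VTC1 stood 1.58 and 1.34 higher, and VTC3 2.07 and 1.69. The arrays galactose B and glucose B share a letter, which may or may not mark a shared preparation. Between them VTC3 differed 5.04-fold, VTC1 3.26-fold, VTC4 2.64-fold and VTC2 1.81-fold.

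**Figure D3:**
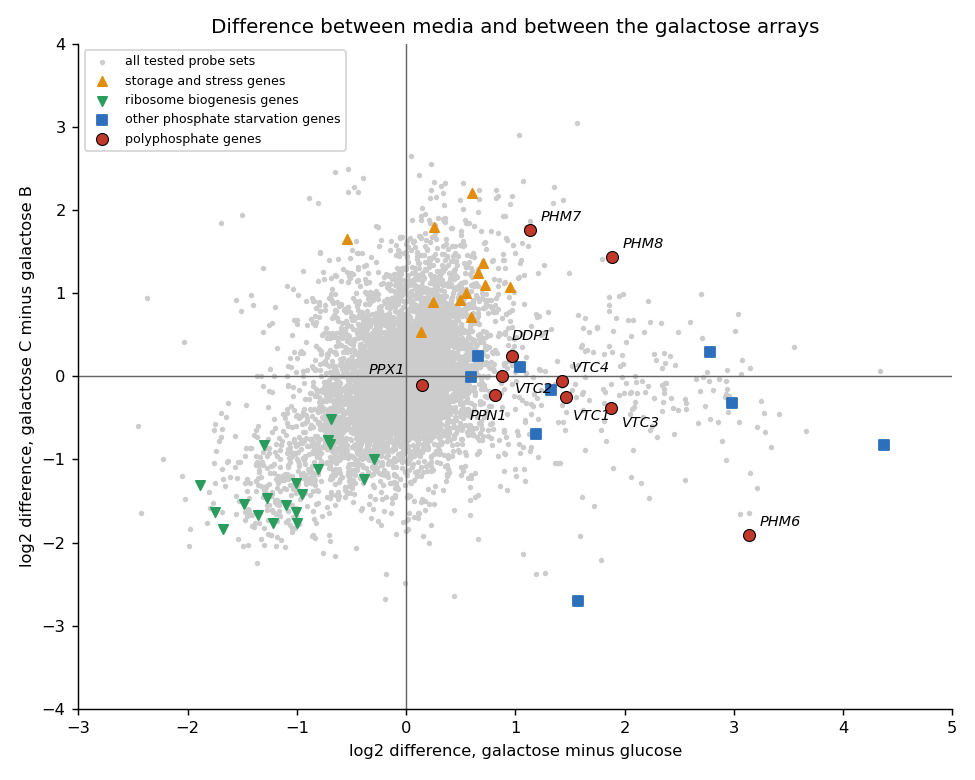
Each point is a probe set, with the log2 difference of galactose minus glucose on the horizontal axis and that of galactose C minus galactose B on the vertical axis. Grey points are all tested probe sets, of which 9 lie outside the axes. The VTC genes, PPN1, PPX1 and DDP1 lie near the horizontal line, PHM7 and PHM8 lie above it, in the vertical range of the storage and stress genes (triangles) but to the right of them all, and PHM6 lies below it.

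Other genes listed with the phosphate starvation response were also mostly higher in galactose. Of 12 listed, 9 were tested, 8 were separated upward and 0 downward, beside 17.0% and 22.1% of all tested probe sets. The median log2 difference was 1.32 (2.50-fold), close to the members' 1.28. At an unadjusted limma p under 0.05, 8 were higher, beside 4.29% of all tested probe sets. After adjustment 0 passed limma's test, where 0.794% of tested probe sets passed as higher and 0.0411% as lower. The adjusted p-values of the 9 genes ran from 0.125 to 0.749 in limma. The acid phosphatase gene PHO3 was 1 of the 8 in each count. It lay near the floor and is not known to be induced when phosphate runs short. Among the 8 listed genes above the floor on all arrays, which leaves out PHO3 alone, 7 were separated upward. Their median log2 difference was 1.45.

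The glycerophosphoinositol transporter gene GIT1 had the highest fold of that list, 20.8, with 2897 and 1636 in galactose, against 203 and 54.0 in glucose. The high-affinity phosphate transporter gene PHO84 read 4821 and 3862, against 1238 and 242. SPL2, whose product lowers low-affinity phosphate uptake, read 610.3 and 749.96, against 174 and 55.3. The sodium-coupled transporter gene PHO89 read 341 and 52.4, against 91.2 and 22.2, so its media overlapped. In all 4 the glucose arrays lay over 2-fold apart with glucose A the higher. Of all tested probe sets 4.29% had glucose arrays at least 2-fold apart. The 0 of 10 polyphosphate genes with such a gap lie near that share and do not set the members apart.

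Secreted acid phosphatase genes lay near or under the floor. PHO3 was tested and read 27.0 and 32.1 in galactose, against 14.5 and 18.9 in glucose, where glucose A lay under the floor (limma adjusted p = 0.305). PHO5 read 10.9 and 8.81 in galactose and 4.29 and 5.27 in glucose, under the floor on all 4 arrays. PHO11 and PHO12 share a probe set, which lay under the floor as well, with 6.82 as its highest value. PHO5, PHO11 and PHO12 were therefore not tested and are not among the 9, and PHO3 and PHO5 are named after their values were seen.

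Regulators and low-affinity transporters of phosphate lay on both sides of no difference. Of 8 tested genes, 1 was separated upward and 3 downward, beside 17.0% and 22.1% of all tested probe sets. The 8 genes had a median log2 difference of -0.04. With an array left out, separation is easier, since 1 array cannot overlap in itself. No share over all tested probe sets was computed there, so those counts have nothing to be set against. The upward count was 3 without galactose B, 2 without any other single array and 0 after median centring of the arrays, and the median was -0.30 without galactose B. The low-affinity transporter gene PHO87 averaged 316 ± 74.9 in galactose and 978 ± 12.4 in glucose (limma adjusted p = 0.125). The activator gene PHO4 averaged 151 ± 12.9 and 244 ± 12.3 (limma adjusted p = 0.555). The transporter gene PHO90 averaged 347 ± 129 and 531 ± 69.3 (limma adjusted p = 0.660), and SYG1, which encodes an SPX membrane protein, 613 ± 323 and 493 ± 168 (limma adjusted p = 0.910).

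Inositol pyrophosphates are the signal that SPX domains bind. Of 9 tested genes that make or remove them or were later tied to polyphosphate, 4 were separated upward and 0 downward. Over all tested probe sets the shares were 17.0% and 22.1% with all 4 arrays. No such share was computed with an array left out. The median log2 difference of the 9 genes was 0.22. Without glucose B, 7 were separated upward and 2 downward, but 1 array cannot overlap in itself, so separation is easier there. The kinase gene VIP1 averaged 451 ± 7.87 in galactose and 281 ± 26.6 in glucose (limma adjusted p = 0.542). The kinase gene KCS1 averaged 1017 ± 326 and 674 ± 5.51 (limma adjusted p = 0.667). The phospholipase C gene PLC1 averaged 231 ± 51.7 and 159 ± 52.2 (limma adjusted p = 0.729), and the inositol pyrophosphate phosphatase gene SIW14 319 ± 69.0 and 401 ± 68.4 (limma adjusted p = 0.771).

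Genes for polyphosphate proteins beyond the 10 members had folds of 1.20 or less with wide intervals, and they are named after their values were seen. VTC5, an accessory subunit of the polymerase, averaged 264 ± 34.0 in galactose and 229.7 ± 54.2 in glucose, 1.16-fold higher (limma adjusted p = 0.864). PPN2, a further vacuolar polyphosphatase, averaged 410.5 ± 11.7 and 346 ± 72.3, 1.20-fold higher (95% interval 0.739 to 1.94; limma adjusted p = 0.804). VTC5 thus lay below each of the other subunits in fold, with its 95% interval on the log2 scale from -0.56 to 0.99.

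The proton pump of the vacuole, which energises the membrane where VTC sits, gave small differences in both directions. Of 14 tested subunit genes, 1 was separated upward and 5 downward, beside 17.0% and 22.1% of all tested probe sets. The 14 genes had a median log2 difference of -0.06. Leaving out an array makes separation easier, since 1 array cannot overlap in itself. The share over all tested probe sets was not computed for such settings, so those counts have nothing to be set against. The downward count was 8 without galactose B and 9 without glucose A, and the upward count was 4 without galactose C, 3 without glucose B, 2 without glucose A and 3 after quantile normalization. Their log2 differences ran from -0.41 for VMA8 to 0.47 for STV1, with VMA16 at -0.38 and VMA11 at -0.32, and their adjusted p-values from 0.652 to 0.999 in limma.

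**Figure D4:**
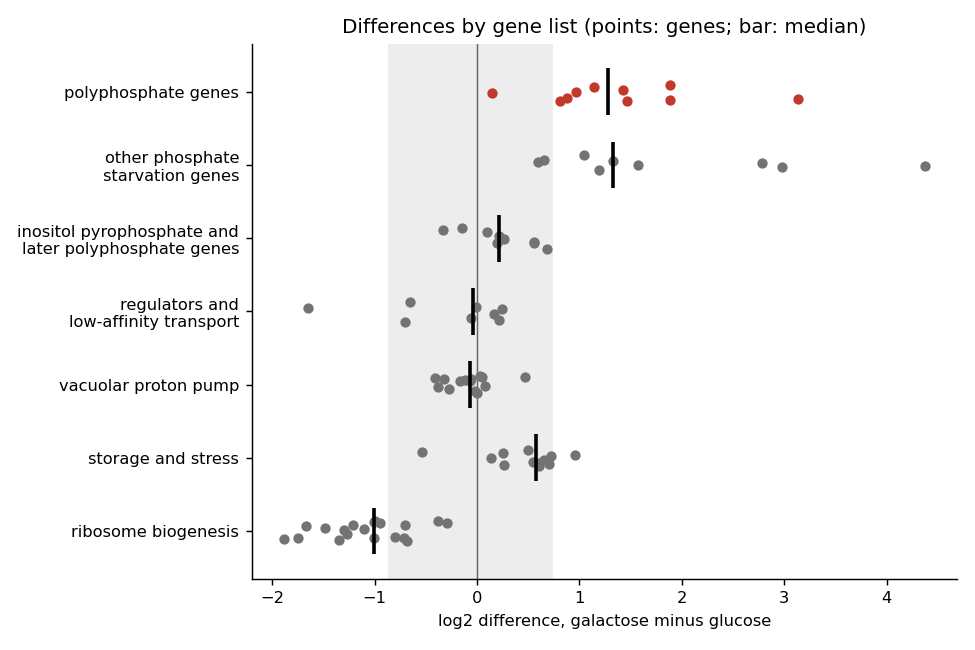
The log2 difference between galactose and glucose (horizontal axis) of each tested gene, by list, with a bar at each list's median and a grey band over the central 90% of all tested probe sets. The polyphosphate genes and the other phosphate starvation genes have medians of 1.28 and 1.32, to the right of the band, and the medians of the inositol pyrophosphate, regulator and proton pump lists, at 0.22, -0.04 and -0.06, lie within it.

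The relatives of PHM7 and PHM8 were compared with them by value. CSC1, related to PHM7, averaged 682 ± 211 in galactose and 429 ± 17.2 in glucose (limma adjusted p = 0.633), and like PHM7 it was higher on galactose C (831) than on galactose B (532). RSN1, of the same family, averaged 466 ± 86.2 and 477 ± 65.4 (limma adjusted p = 0.974). The nucleotidase gene SDT1, related to PHM8, averaged 65.8 ± 17.8 and 66.2 ± 4.11 (limma adjusted p = 0.979). SPO75, a sporulation gene of the PHM7 family, lay under the floor on all arrays.

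The genes whose pattern over the 4 arrays was most like that of VTC4 were found by the Euclidean distance between log2 values, each gene minus its own mean, among 5617 single-gene probe sets that exceeded the floor everywhere. YOR192C-C was nearest, at 0.05 on the log2 scale, through a family probe set that may read further copies. Another YOR192C-C probe set lay at 0.35, while the remaining 2 of that name had log2 differences of 0.41 and 0.50, against 1.43 for the nearest. GDE1, a glycerophosphocholine phosphodiesterase gene with an SPX domain, followed at 0.25, with 353 and 316 in galactose, against 116 and 154 in glucose. OSI1 lay at 0.28, the D-serine dehydratase gene DSD1 at 0.32 and YHR112C at 0.38, where the median distance of all these probe sets was 1.56. In glucose OSI1 read 19.7 and 19.9, close to the floor of 18.5, and DSD1 read 25.1 and 35.3. Among the members VTC1 was nearest to VTC4, at 0.28, followed by DDP1 at 0.52, VTC2 at 0.54, PPN1 at 0.64 and VTC3 at 0.68. PHM8, PPX1, PHM7 and PHM6 lay farther away, at 1.15, 1.28, 1.35 and 2.20.

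The members do not sit next to each other in the gene order of the reference strain, and most of their tested neighbours had overlapping media. Of the 20 genes that flank a member, a set added after the data were seen, 17 were tested. Of these, 2 were separated upward and 1 downward, with a median log2 difference of 0.04. Over all tested probe sets, 17.0% were separated upward and 22.1% downward, so overlapping media were common everywhere. The kinetochore gene CTF19, beside VTC3, averaged 68.5 ± 56.5 in galactose and 17.6 ± 0.417 in glucose, where the mean lay under the floor (limma adjusted p = 0.591). RPC17, a subunit gene of RNA polymerase III beside VTC4, averaged 79.1 ± 1.97 and 159.6 ± 14.1 (limma adjusted p = 0.341), and YHP1, beside PPN1, 167 ± 0.703 and 128 ± 11.7 (limma adjusted p = 0.729). These 3 are named after their values were seen.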

How the data were processed

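Total RNA of 4 samples was measured on Affymetrix yeast arrays. The authors deposited 1 intensity per probe set and array, on a linear scale; how they summarised, corrected and scaled it is not given in the sources used here. Of 9335 probe sets, 60 controls were left out. A single gene symbol was annotated to 6504 probe sets, several to 328 and none to 2443. Gene numbers tied all 6504 to RefSeq's R64 table. Coordinates of that table served only to order the genes when the neighbours of each member were found. None is printed, since the values name no build.

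The deposited intensities were used unscaled, since the array medians differed by 1.08-fold, under a limit of 1.1. Values under the 25th percentile (18.5) were set to it before log2, and 1973 probe sets with all values there were left out. Folds are differences of mean log2 values; means and SDs use the deposited values without the floor. The media were compared over 7302 probe sets with limma 3.58.1 in R 4.3.3 (eBayes with trend, 2 residual and 4.73 total degrees of freedom) and Benjamini-Hochberg adjustment at 0.05. The fit was tested on simulated data. The brightest probe set stood for a gene. With 2 arrays per medium, precision is limited.

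The members and lists were chosen with earlier results of these data known. From each other list the text names the 4 tested genes with the largest differences above the floor, and it names all relatives and galactose genes and the 5 genes nearest to VTC4; others are said to be named after their values were seen. Alternatives were scaling, floor, filter, moderation, the probe sets adjusted over, the probe sets per gene, and leaving out each array. Figures were drawn with Python 3.11.15, pandas 2.3.3 and matplotlib 3.10.9.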

Additional observations from a re-analysis of the deposited data

How the results depend on the processing

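Over 14 alternatives, 4 of which leave out an array, the 10 members gave 140 log2 differences. Of these, 139 kept their sign and their side of the threshold. The exception was PPX1, at -0.010 without glucose A and up to 0.31 without glucose B. Much of that count was fixed beforehand. A member separated upward keeps its sign whichever array is left out. The changes of filter, of moderation and of the probe sets adjusted over left the members' log2 differences as they were. The count is therefore no measure of robustness. Over all probe sets the adjusted test counted 25 higher after quantile normalization and 32 under a 10th-percentile floor, against 58. Among probe sets naming 1 gene it counted 5 higher and 1 lower, against 58 and 3, and 146 were higher at an unadjusted p under 0.05, against 313; fewer probe sets were tested there. With any array left out, 0 passed in either direction, and 186 to 509 were higher at an unadjusted p under 0.05. Leaving out an array moved the members' median log2 difference between 1.04 (without galactose C) and 1.37 (without galactose B), and their count at an unadjusted p under 0.05 between 3 and 9. The regulators separated upward numbered 0 with arrays shifted to a common median and 2 to 3 with an array left out, with medians from -0.30 to -0.016. With an array left out, the inositol pyrophosphate list had 4 to 7 separated upward (7 without glucose B) and 1 to 2 downward; with every array kept it had 3 to 5 upward and 0 downward. The proton pump genes had 3 separated upward after quantile normalization, and with an array left out 1 to 4 upward and 6 to 9 downward, with medians from -0.20 to -0.027. The causes were not tested. A group of 1 array cannot overlap in itself, so separation is easier without an array. The share of all probe sets separated was not computed there, so whether these counts are unusual cannot be told. No paired analysis was possible because the media share only the letter B.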
